A study of Mus musculus with 3 samples.

Results

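Atoh7 was mapped at its own gene through the peaks centred within 100 kb of the annotated Atoh7 body, and 5 of the 3668 peaks of the list met that rule. Of these, 4 lay in the intergenic sequence upstream of Atoh7 or over its start, and the fifth lay across the facing ends of Hnrnph3 and Pbld2. Its product belongs to the basic helix-loop-helix (bHLH) transcription factors, is made in retinal progenitors that are about to become neurons, and is needed in mice for most ganglion cells to form. The libraries were made by CUT&RUN, in which an antibody guides a nuclease to release the DNA beside the bound protein. They came from C57Bl6/J mouse retina at embryonic day 14, 2 from an Atoh7 antibody and 1 from IgG. No mutant or treatment separates them, since all carried the same strain, tissue and age, and the labels do not say whether retinas were pooled or came from separate animals.

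The list gives a position and a width for each peak on the mm10 build, with no height and no value per library. Library depth is therefore unknown, the replicate libraries could not be compared, and the IgG level at Atoh7 is not analysed here. The tissue label could not be checked against markers, because peak positions hold no expression level. No p-value is given at any point, since 1 list leaves nothing to set a replicate spread against.

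Proteins of this family bind DNA as dimers with broadly expressed E-proteins, at a short motif called the E-box. A factor whose protein sits at its own gene may act on its own transcription, an arrangement called autoregulation. For the chick and frog relatives of Atoh7, E-boxes close to the start of the gene have been tied to this arrangement. In human families, loss of a remote enhancer upstream of ATOH7 is known to cause congenital retinal nonattachment. Where the mouse protein sat around its own start and in the sequence upstream of it is the question that these peaks address, and they hold no measure of transcription.

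The promoter of Atoh7 is shown first because a peak covered all of it. The stretch runs over the 250 bases before the RefSeq start (GRCm38.p6, the assembly that mm10 names, plus strand, chr10:63099535-63099784) and ends at the base before the start. Capitals mark E-boxes (CANNTG, a palindromic pattern that reads the same on both strands) and the TATA box (TATAAA).
Atoh7 promoter: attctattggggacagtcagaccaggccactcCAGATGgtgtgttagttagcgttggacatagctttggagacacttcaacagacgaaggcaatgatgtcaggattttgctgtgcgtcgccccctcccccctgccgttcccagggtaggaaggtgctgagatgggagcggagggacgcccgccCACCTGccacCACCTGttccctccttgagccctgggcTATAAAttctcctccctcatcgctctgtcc

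Position -1 is the base before the start. The Atoh7 promoter held 3 E-boxes, all under the peak. The distal one read CAGATG and lay at -218 to -213. The proximal ones both read CACCTG and lay at -67 to -62 and at -57 to -52, with 4 bases between them. The TATA box, the element that positions transcription at many regulated genes, lay at -30 to -25. An inverted CCAAT box, a common promoter element read as ATTGG on this strand, lay at -245 to -241. Guanine and cytosine made up 57.6% of the 250 bases, against a median of 52.4% over all promoters.

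These letters are common one by one and less common together. An E-box of any kind was present in 72.3% of 32412 promoter windows, each of 300 bases with 250 before and 50 after a RefSeq start, and at least 3 E-boxes in 17.6%. CAGATG or its complement CATCTG was present in 17.1% of windows. CACCTG or its complement CAGGTG was present in 20.4%, but at least 2 of them in 2.90%. TATAAA was present on either strand in 13.6% and CCAAT or ATTGG in 37.5%. At least 2 CACCTG or CAGGTG matches together with a TATAAA were found in 110 windows (0.339%). Of these 110, 1 (0.909%), the Atoh7 window, had its start under a peak, as had 573 of all 32412 windows. That combination was chosen after the Atoh7 promoter had been read, so its share describes the sequence and tests nothing.

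The CAGCTG form of the E-box had no match in the Atoh7 promoter window. It was present in 30.0% of the 573 windows whose start lay under a peak and in 16.4% of all windows. The forms that the Atoh7 promoter did hold had lower shares under peaks than over all windows, with 18.2% against 20.4% for CACCTG or CAGGTG and 15.4% against 17.1% for CAGATG or CATCTG. At least 2 of the CACCTG or CAGGTG form were present in 1.75% of windows under peaks, against 2.90% of all windows. An E-box of any kind was present in 66.7% of windows under peaks and at least 3 in 12.7%, against 72.3% and 17.6% of all windows. None of these differences was tested. Matches to CACGTG and CATATG were also absent from the Atoh7 window. CACGTG was present in 8.90% of windows under peaks against 7.19% of all windows, and CATATG in 1.05% against 3.80%, also not tested. TATAAA was present in 6.28% of windows with a peak over the start, so the Atoh7 promoter combined a peak with an element held by few promoters of that kind.

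**Figure D1:**
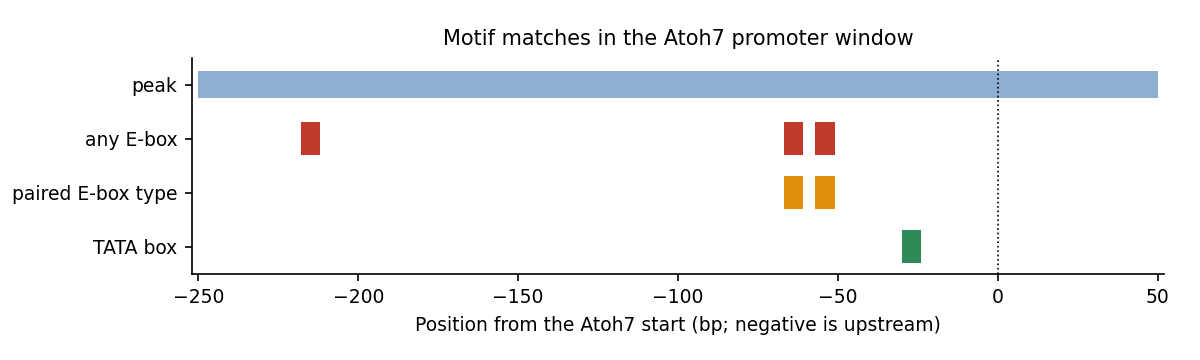
Motif matches by position in the Atoh7 promoter window, in base pairs from the start (dotted line), with the bar at the top marking the part of the window under the peak. The peak covers the whole window, 2 E-boxes of the CACCTG type stand next to each other at -67 and -57, and the TATA box follows at -30.

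The peak over the start ran from 63099416 to 63099997 on chromosome 10 and was 582 bp wide. It took in 369 bp before the start of Atoh7 and the first 213 bp of the 1496 bp gene (chromosome 10, 63099785 to 63101280). Its centre lay 78.5 bp upstream of the start and 14 bp from the centre of the nearest E-box, the first CACCTG. Across 221 peaks over a protein-coding start with their centre and an E-box inside the promoter window, that distance had a median of 45 bp (quartiles 18 and 83.5 bp), and 42 of them were nearer than at Atoh7. A peak centre is the middle of an interval and not a summit, so a distance of this size places no contact on 1 E-box.

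A peak over a start was uncommon in the list as a whole. Among 17274 protein-coding genes with a RefSeq start in the promoter table, Atoh7 included, 447 had a peak overlapping a start (2.59%). The 411 peaks that did so had a median width of 395 bp (quartiles 309 and 487 bp), and 87.6% were narrower than the Atoh7 peak. Their centres lay at a median of -32 bp from the start (quartiles -106 and 36 bp), with 250 of them (60.8%) upstream, so the Atoh7 peak was among the wider ones and its offset of -78.5 bp lay within the quartiles.

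**Figure D2:**
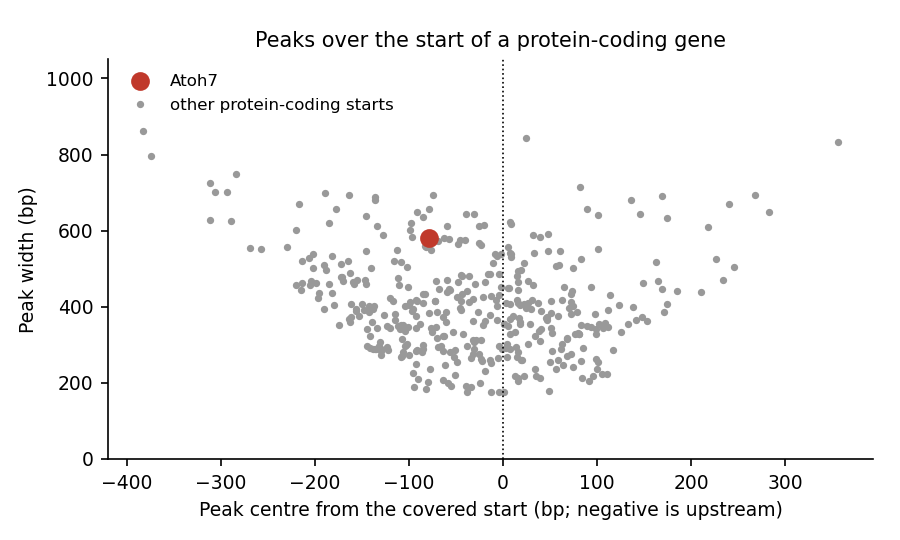
Width of each peak over a protein-coding start, in base pairs, against the distance of its centre from the start it covers, with Atoh7 as the large point. Atoh7 sits at 582 bp and -78.5 bp, wide for this set and ordinary in offset.

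The second peak of the proximal pair ran from 63098163 to 63098660, was 498 bp wide and was centred 1.37 kb upstream of the start. A gap of 755 bp separated it from the peak over the start. The distal pair stood apart from these by a gap of 7481 bp. Its nearer peak ran from 63090148 to 63090681, was 534 bp wide and was centred 9.37 kb upstream. Its farther peak ran from 63089274 to 63089649, was 376 bp wide and was centred 10.3 kb upstream, with 498 bp between the peaks of that pair. The upstream sequence thus held peaks in 2 pairs, with centres 1295 bp apart in the proximal pair and 953 bp apart in the distal pair.

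Widths differed little among the peaks apart from the farthest upstream one. The peak over the start was wider than 87.3% of all peaks, the nearer distal peak than 82.3% and the second proximal peak than 76.9%. The farther distal peak, at 376 bp, was close to the median of the list, wider than 48.4%. In the whole list the median width was 381 bp (quartiles 269 and 486 bp). Width is the length of an interval and not a measure of occupancy, so the order of these widths is no order of binding.

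**Figure D3:**
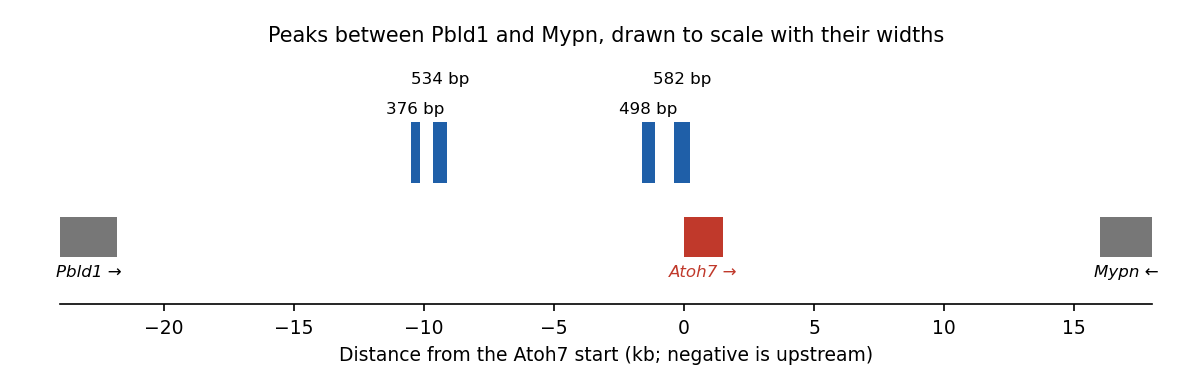
Peaks (upper blocks, with widths) and genes (lower blocks) between Pbld1 and Mypn, to scale in kb from the Atoh7 start. A proximal and a distal pair lie upstream of Atoh7, and no peak lies in the sequence between Atoh7 and Mypn.

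All 4 of these peaks lay in the 21.8 kb between the finish of Pbld1 and the start of Atoh7 or over that start, and none had its centre inside the gene. Together they covered 1990 bp, which is 18.6% of the 10724 bp from the outer edge of the distal pair to the inner edge of the peak over the start. Downstream of Atoh7, 0 peaks of the list lay within 100 kb. That stretch holds 14.5 kb of intergenic sequence and most of Mypn, which encodes a sarcomere protein of muscle. Pbld1, which encodes a phenazine biosynthesis-like domain protein, points towards Atoh7 on the same strand and held 0 peaks in its 17.3 kb body. The farther distal peak lay nearly midway between both genes, 10.3 kb from Atoh7 and 11.5 kb from Pbld1, so that its assignment to Atoh7 rests on nearness by a narrow margin. The nearer distal peak lay 9.37 kb from Atoh7 and 12.5 kb from Pbld1.

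The fifth peak within 100 kb lay nearest to other promoters, and which gene it acts on, if any, was not tested. It ran from 63023895 to 63024408, was 514 bp wide, wider than 79.4% of all peaks, and was centred 75.6 kb upstream of Atoh7. It lay between the divergent RefSeq starts of Hnrnph3, which encodes an RNA-binding protein of the hnRNP H family, and Pbld2, a relative of Pbld1. Its edges were 46 bp from the Hnrnph3 start and 104 bp from the Pbld2 start, so it covered neither of these promoter-table starts. It did cover the facing ends of both annotated bodies, where each gene begins, with 86 bp of the Hnrnph3 body and 356 bp of the Pbld2 body. A stretch of 72 bases between the annotated bodies of both genes is shown because it holds the only E-box of either promoter window and because that E-box is of the same form as the proximal ones at Atoh7 (GRCm38.p6, plus strand, chr10:63023981-63024052, E-box in capitals).
Hnrnph3 to Pbld2: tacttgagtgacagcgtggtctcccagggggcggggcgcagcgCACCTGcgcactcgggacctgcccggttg

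The centre of that E-box lay 125 bp from the centre of the fifth peak, against 14 bp for the nearest E-box at Atoh7. Other promoters of the neighbourhood held E-boxes with no peak over them. The Mypn window held 3 E-boxes, at -54, -34 and 12 bp from its start, of which the first was of the CACCTG or CAGGTG form, and a TATAAA at -27. The more distal Pbld1 window held 1 E-box of the CACGTG form, and the other Pbld1 window held 3, of which 1 was CAGCTG. The Rufy2 window, whose gene encodes an endosomal adaptor protein, held 1. In these letters, Mypn came close to the Atoh7 promoter and had no peak.

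**Figure D4:**
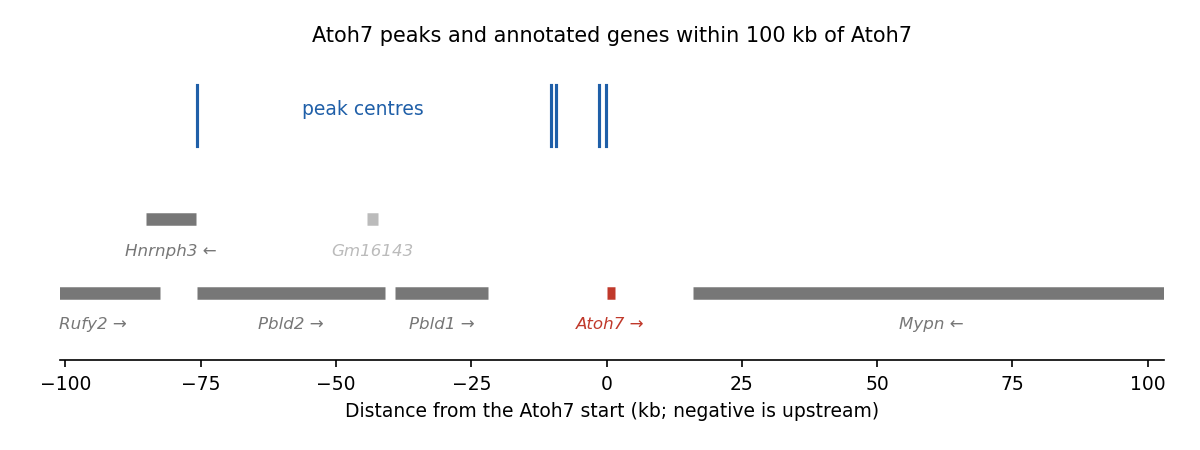
Peak centres (upper lines) and annotated genes (bars, with arrows for strand where known) within 100 kb of Atoh7, in kb from its start. Of 5 peaks, 4 lie between Pbld1 and Atoh7 or at the start of Atoh7, and 1, at -75.6 kb, spans the facing ends of Hnrnph3 and Pbld2.

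Outside this group the list held no peak for a long way along the chromosome. The member farthest from Atoh7 lay 75.6 kb away, and the next peak on that side lay 883 kb from the Atoh7 body, nearest to Tspan15. On the other side the next peak lay 3457 kb away, with no protein-coding gene within 100 kb. Of the 4 gaps among the 5 peaks at Atoh7, 2 were under 1 kb. Over the list, 96 of 3642 gaps between neighbouring peaks (2.64%) were under 1 kb, and the median gap was 258 kb. The span of the 4 peaks nearest to Atoh7, 10724 bp, was taken as a limit for tight sets. Atoh7 therefore met it by construction, and the count tests nothing. Of 3602 sets of 4 neighbouring peaks in the list, 2 lay within that limit. One was at Atoh7 and the other was nearest to Cwc22, a splicing factor gene to which many peaks of the list are assigned.

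The running numbers in the peak names also met without a break here. The 5 peaks carried the numbers 574 to 578, and the peaks on either side carried 573 and 580, so that only 579 was absent between them. Where peak 579 lay is not known here, so the stretch downstream of Atoh7 is free of peaks only in the list. Over the list, numbers reach 7185 and 51.1% of them are present. Of 7181 runs of 5 consecutive numbers, 257 (3.58%) were present in full. How the missing numbers came to be left out was not stated in the sources used here, and every name begins with Atoh7_R1. The peaks may therefore have been called on the replicate 1 library alone, in which case each count here stands for 1 library. Whether the replicate 2 library or IgG entered the list is not known here.

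Read from the start outwards over 20 kb, Atoh7 had more upstream peaks than any other protein-coding gene with a RefSeq start in the promoter table. It had 4 peaks centred within 20 kb upstream of its start, and it was the only 1 of 17274 genes with that many (0.00579%). Another 8 genes had 3, namely Chaf1a, Fam110a, Fastk, Gadd45a, Gse1, Kazald1, Necab3 and Tmub1, while 95 had 2 and 1069 had 1. At least 1 such peak was present at 1173 genes (6.79%). The 20 kb window and these names were chosen after the values had been seen. Among the 447 genes with a peak over a start, 412 (92.2%) had no further peak centred within 20 kb upstream, 29 had 1, 5 had 2 and 1, Atoh7, had 3.

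The rank depended on the side and the distance. With peaks within 20 kb on either side of a start, 9 genes had at least 4. These were Atoh7, Btg2, Cwc22, E2f1, Fam110a, Fastk, Gse1, Rbpj and Tmub1. Btg2 is an antiproliferative gene of neurogenic progenitors, E2f1 is an S-phase regulator gene, and Rbpj encodes the DNA-binding protein of the Notch pathway. Within 50 kb upstream, 6 genes had at least 4, and within 10 kb upstream, where Atoh7 had 3, Fastk and Tmub1 had as many. Within 2 kb upstream Atoh7 had 2 peaks, as did 8 other genes. These were Cirbp, Hes6, Lzts2, Mrpl34, Ogdh, Osbpl2, Pfkfb2 and Sfr1, of which Hes6 is a bHLH gene of differentiating neurons.

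**Figure D5:**
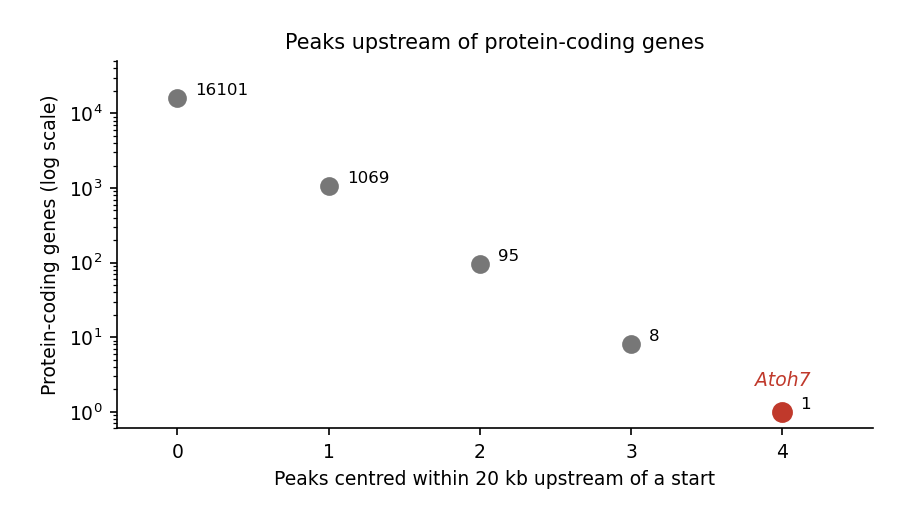
Number of protein-coding genes (log scale) by the number of peaks centred within 20 kb upstream of a start. Counts drop from 16101 genes with 0 peaks to 8 with 3, and Atoh7 is the only gene with 4.

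Counted by nearest gene, Atoh7 was less unusual. Its 4 nearest peaks placed it among 59 of 21631 protein-coding genes (0.273%) with at least 4, and its 5 peaks within 100 kb of the body placed it among 130 genes (0.601%) with at least 5. Most genes with many nearest peaks were long, and whether length bears on their counts was not tested. The 59 genes had a median length of 268 kb, against 17.3 kb over all protein-coding genes. Of the 59, only Atoh7 was as short as its 1.496 kb, a length that 2013 of all protein-coding genes did not exceed. The 130 genes had a median length of 28.7 kb, and 3 of them were that short, with Atoh7 counted.

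A list of 34 genes that act before, beside or after Atoh7 served to set its own locus beside its pathway. RefSeq starts were matched for 24 of them. A peak overlapped a start at 2 of the 24 (8.33%, against 2.59% of all protein-coding genes), Rbpj and Elavl4, a neuronal RNA-binding protein gene. With a peak centre within 1 kb of a start the count was 6 of 24 (25%), against 788 of all 17274 protein-coding genes with a start (4.56%). A peak within 20 kb upstream was present at 12 of the 24, against 6.79% of all protein-coding genes. Atoh7 had 4 such peaks and no gene of the list more than 2. No test was run on these shares, and the list was chosen with earlier results known.

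Of 16 bHLH relatives and partners of Atoh7, 12 had a matched start. Of these 12, 6 had an upstream peak within 20 kb, against 6.79% of all protein-coding genes. A peak overlapped the start at 0 of the 12, and with 2.59% over all protein-coding genes, 12 are too few to read this 0. A peak was centred within 1 kb of a start at 3 of the 12 (25%, against 4.56% of all), namely Neurog2, Neurod1 and Tcf3. Neurod1 and Neurod4, bHLH genes of differentiating neurons, and Olig2, a bHLH gene of progenitors, had 2 upstream peaks each. Neurog2, the proneural gene that acts in the same progenitors, had 1, as had Tcf3, which encodes an E-protein dimer partner, and Id3, which encodes an inhibitor of such dimers. Atoh1, a close relative of Atoh7, had 0 upstream peaks, as had 93.2% of all protein-coding genes with a RefSeq start, and 0 nearest peaks.

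Genes that act before Atoh7 had an upstream peak at 4 of the 7 with a matched start, against 6.79% of all protein-coding genes. Pax6, Six3, Hes5 and Rbpj had 1 such peak each. Pax6 and Six3 are eye-field homeobox genes and Hes5 encodes a repressor that acts under Notch. Ganglion cell genes had an upstream peak at 2 of the 5 with a matched start, 2 peaks at Elavl4 and 1 at Pou4f1, a POU-domain factor gene. A peak was centred within 1 kb of a start at 1 of the 7 and at 2 of the 5, against 4.56% of all. Both groups are small, and these shares were not tested. Pou4f2 and Isl1, the ganglion cell factor genes that follow Atoh7, had 0 upstream and 0 nearest peaks. A count of 0 upstream peaks was shared by 93.2% of all protein-coding genes with a RefSeq start. Of all 34 genes, Rbpj alone had at least as many nearest peaks as Atoh7, with 5, and like Atoh7 it also had a peak over a RefSeq start. That start is not at an end of the Rbpj body, within 1 kb of which no peak was centred.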

How the data were processed

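CUT&RUN was done on 3 libraries of mouse retina at embryonic day 14, 2 with Atoh7 antibody and 1 with IgG, grouped by title. The authors worked on mm10 and used MACS2 2.2.7.1, Bowtie2 2.3.5, bedtools, Picard 2.0.1 and SAMtools, per the submitters' processing notes. Order, settings and the filter on peaks are not stated there. The deposited list holds positions and widths in base pairs, per the file headers, with no count per library. Depth is unknown, so counts carry no interval.

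RefSeq annotation of GRCm38.p6 gave the genes (21631 protein-coding genes on chromosomes 1 to 19 and X), and starts, strands and sequences from RefSeq promoter windows (17274 of these genes). A further 6 peaks off those chromosomes were left out of gene counts. A peak was placed by its midpoint and assigned to the nearest protein-coding body within 100 kb. Windows with identical sequence were counted once in motif shares, both strands were searched, and overlapping matches were counted. The search of specific E-boxes overlaps that of CANNTG. Named genes were Atoh7, genes in its window, and list genes with a gene-end peak and as many nearest peaks, which none met, so all others were named with their values known. The members and lists were chosen with earlier results of these data known. The scripts were tested on simulated data. Python 3.11.15, numpy 2.4.6, pandas 2.3.3 and matplotlib 3.10.9 were used.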

Additional observations from a re-analysis of the deposited data

How the results depend on the processing

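The number of peaks at Atoh7 was 5 within 100 kb and 3 within 10 kb, where the fifth peak and the farther distal peak drop out by distance. The number of protein-coding genes with as many peaks as Atoh7 was 59 by nearest gene and 130, 128 and 133 for midpoints within 100, 50 and 10 kb of the body. For peaks upstream of a start it was 1 within 20 kb, and 9, 3 and 6 within 2, 10 and 50 kb, and 9 within 20 kb on either side, all chosen after the data were seen. List genes with a peak at a start numbered 2 by overlap and 6 within 1 kb. The other 11 of 20 alternatives stayed within 1.5 times. No paired analysis was possible because the list holds no value per library, and leaving out each replicate was not run for the same reason. A gene absent from the promoter table could not be ranked.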
